A study of Mus musculus with 8 samples.

Results

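The genes described here are 44 genes of DNA replication, taken by name from the normalized counts of mouse liver RNA: the origin recognition and licensing factors, the Mcm helicase subunits, the DNA polymerases and their accessory factors, the enzymes that supply deoxynucleotides, the E2F factors E2f1, E2f2 and E2f8, and the genes that copy DNA methylation and nucleosomes. All 44 were among the 24972 genes listed, and 43 of them reached at least 10 normalized counts in at least 4 libraries and were tested with the 13301 genes that did so. Orc1 did not reach this level and was not tested. Each mouse, of strain C57BL/6J in both groups, received at 10 weeks of age an intravenous adeno-associated virus of serotype AAV8, either AAV8-ALB-ATF3 (the ATF3 group) or AAV8-ALB-Null (the Null group, the control virus with no named gene). ALB was taken as the albumin promoter, which is active in hepatocytes. Liver RNA was taken 8 weeks later, at 18 weeks of age, and the study asked which hepatic genes ATF3, a stress-induced transcription factor of the bZIP family, regulates. Each group had 4 libraries, called Null 1 to 4 and ATF3 1 to 4, although 8 mice are stated for each group in the design text. Whether 1 library stands for 1 mouse is not stated, and the p-values therefore reflect library-to-library spread, which may be technical. In bulk liver RNA, a change in the number of cells that hold a transcript and a change in its amount per cell cannot be told apart.

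Before a cell copies its genome, the origin recognition complex with Cdc6 and Cdt1 loads the ring of Mcm2 to Mcm7 onto DNA. In S phase Cdc45 and the GINS complex turn that ring into a moving helicase, and polymerase alpha with primase starts each new strand, which polymerases epsilon and delta extend with the clamp Pcna. E2F factors switch many of these genes on at the start of S phase, while E2f7 and E2f8 repress them later in the cycle. Adult hepatocytes are mostly quiescent, many are polyploid, and E2f8 is known for its part in the making of polyploid hepatocytes.

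The normalized counts summed to 26.2 M to 28.4 M in the Null and 23.9 M to 25.9 M in the ATF3 libraries, lower in every ATF3 library. Scaling by these sums moved the median log2 change of all genes to 0.13 and the calls over all genes to 2472 higher and 837 lower, beside 1513 and 1306, and called 26 replication genes higher and 0 lower. Atf3 itself, the check of the labels, had 20.3 to 24.5 normalized counts in the Null libraries and 5611 to 7053 in the ATF3 libraries, a log2 change of 8.05 (SE 0.11, limma adjusted p = 5.6e-11), with the delivered and the endogenous transcripts counted together. The small-RNA locus Mir6236 took from 0.308% to 89.4% of the TPM of a library, so TPM is used here for shares within a library and, for tests, only as an alternative.

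Many replication genes were higher in the ATF3 group, led by the helicase gene Mcm2, and none was called lower. Of the 43 tested genes, 22 were called higher at an adjusted p under 0.05 (limma on log2(normalized count + 1), Benjamini-Hochberg over all tested genes), against 11.4% of all tested genes called higher. Among the 22, Gins2 reached 10 normalized counts in only 5 libraries and Cdc6 in only 6, all 4 ATF3 libraries among them. Both thus entered the test only through the group where they are high. No replication gene was called lower, against 9.82% of all tested genes, and 21 were not called. Of the 43, 27 had an unadjusted p under 0.05, all of those 27 with a positive change, beside 33.9% of all tested genes in either direction and 17.6% with a positive change. The median log2 change of the 43 was 0.57, beside 0.01 for all tested genes, and 39 of the 43 changes were positive, beside 50.8% over all tested genes. With TPM scaled by a median of ratios the median of the 43 was 0.29, beside 0.00314 for all genes, and 23 were called higher. The 4 ATF3 libraries all lay above the 4 Null libraries for 21 of the 43, against 13.7% of all tested genes. Summed over the 44 genes, the normalized counts were 7548 to 8537 in the Null libraries and 11253 to 12231 in the ATF3 libraries, so the groups did not overlap. With TPM in place of the normalized counts, 12 of the 43 were called higher, beside 3.31% of all tested genes, and the median of all genes moved to 0.68. The calls of Mcm6, Mcm7, Cdc6, Rfc4, Pola1, Pole, Fen1, Rpa2, Rrm1 and Chaf1a were lost there, and the changes of Mcm9, Mcm10, Rfc3 and Rfc5, negative with the normalized counts, were positive. In both TPM fits 1 was added before the log2, which makes the changes of genes with low TPM smaller. Mean TPM in the Null and ATF3 groups was 0.066 and 0.254 for Cdc6 and 0.56 and 1.23 for Pole. Without a filter on low values, the calls of Mcm7, Rpa2 and Chaf1a were lost.

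**Figure D1:**
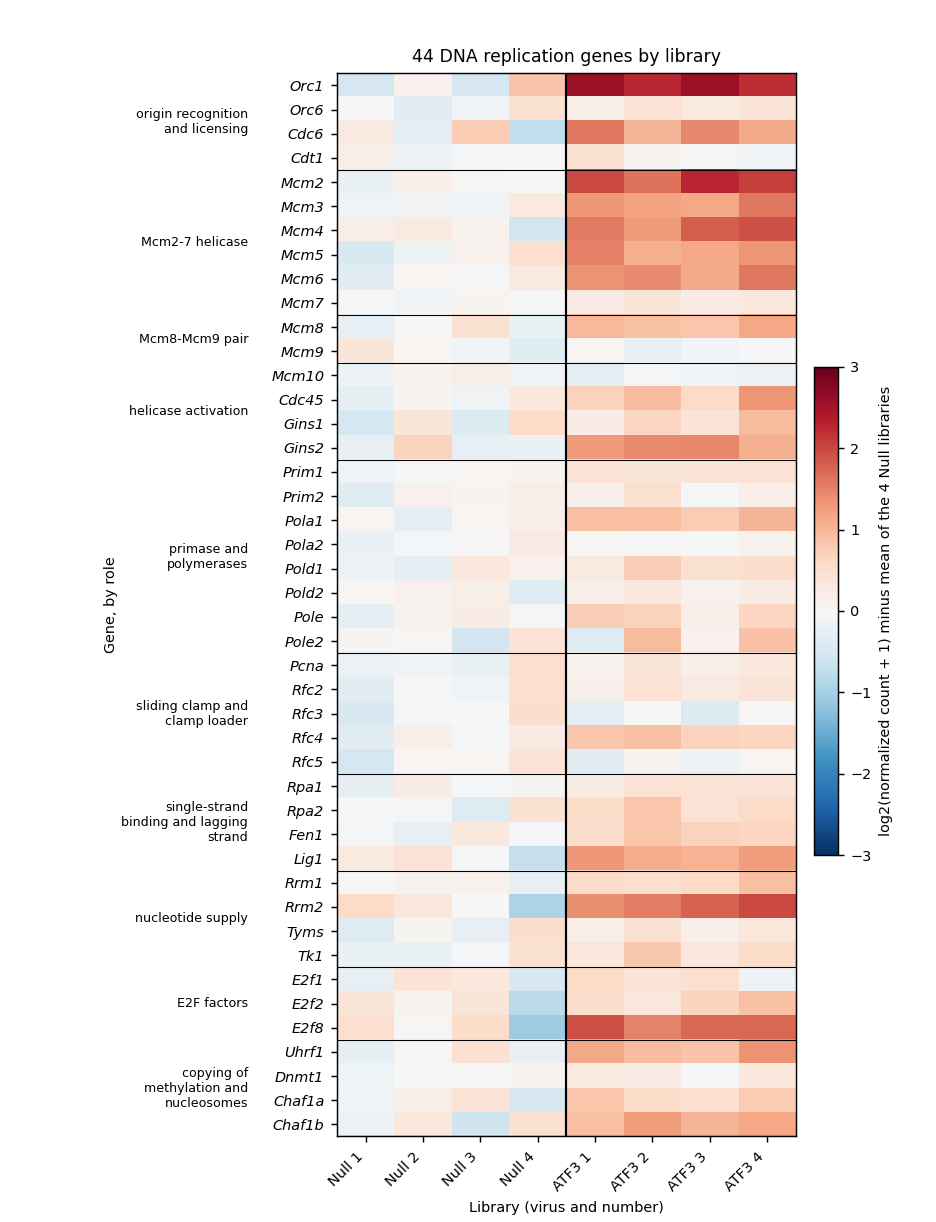
Level of the 44 DNA replication genes (rows, by role) in the 8 libraries (columns), as log2(normalized count + 1) minus the mean of the 4 Null libraries, red for higher and blue for lower. The ATF3 columns are red for Mcm2 to Mcm6, Orc1, Cdc6, Rrm2 and E2f8, pale for Mcm7, Mcm10, Pola2 and Dnmt1, and Null 4 is bluest at E2f8 and Rrm2.

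By role, the share of genes called higher ran from all of them to 1 of 5, beside 11.4% of all tested genes. All 6 subunits of the Mcm2-7 helicase were called, with a median log2 change of 1.34. The genes of single-strand binding and lagging-strand joining had 3 of 4 called, the genes that copy methylation and nucleosomes 3 of 4, helicase activation 2 of 4 and nucleotide supply 2 of 4. The Mcm8-Mcm9 pair had 1 of 2 called, origin recognition and licensing 1 of 3, the E2F factors 1 of 3, primase and polymerases 2 of 8, and the sliding clamp with its loader 1 of 5, with a median of 0.24. These shares of small groups were not tested against each other. The changes ran from -0.16 for Rfc3 to 1.99 for Mcm2, and 12 of the called genes had a log2 change of 1 or more.

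**Figure D2:**
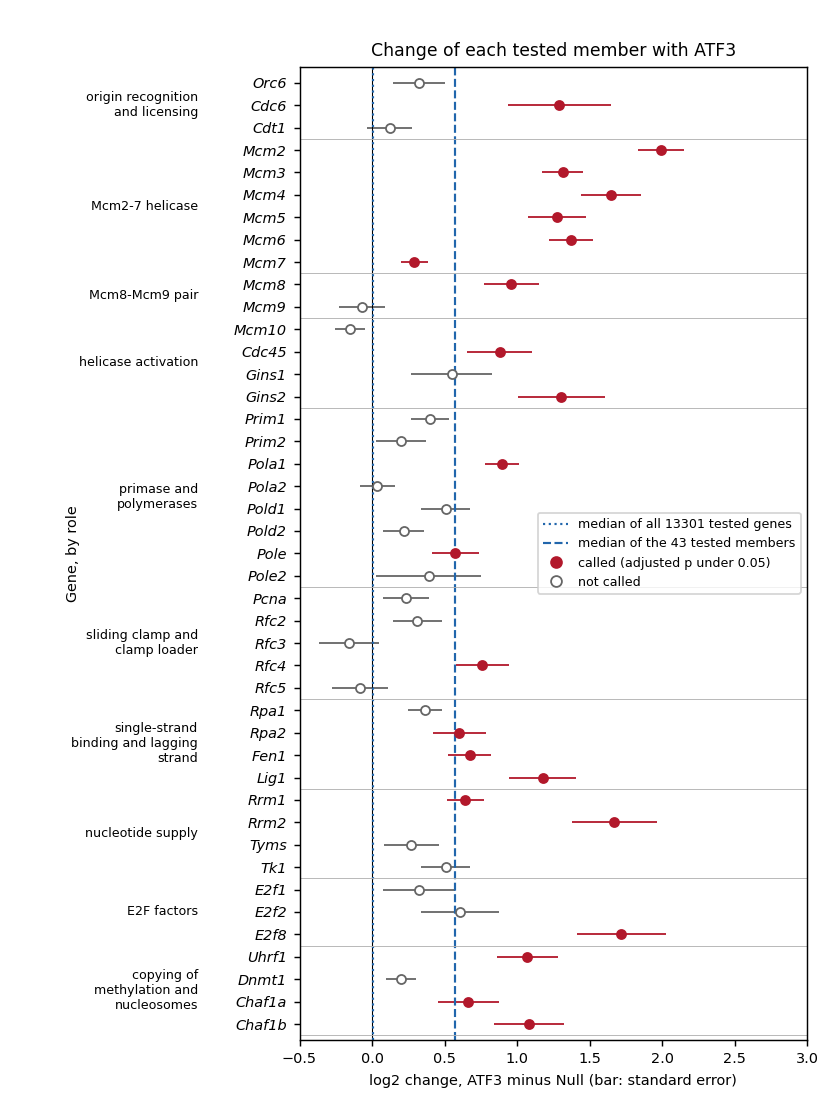
Log2 change from the Null to the ATF3 group (horizontal axis, bars are standard errors, 4 libraries per group) for the 43 tested genes, by role, with filled red points for the 22 called genes and open grey points for the other 21. The dashed line is the median of the 43 genes, 0.57, and the dotted line the median of all 13301 tested genes, 0.01. Mcm2 lies farthest to the right at 1.99, and Rfc3, Mcm10, Rfc5 and Mcm9 lie left of 0.

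The promoters of these genes hold the letters of E2F sites more often than promoters do in general, and some are printed to show where those letters lie. RefSeq promoters (build GRCm38.p6) were found by symbol for 38 of the 44 genes, and not for Mcm4, Gins1, Gins2, Rfc2, Prim2 and Pole. In the 250 bases before the start, on either strand, the search was for 4 E2F cores: TTCCCGC or TTGGCGC or TTCGCGC or TTGCCGC, which can overlap each other on opposite strands. At least 1 core was found in 17 of the 38 genes (44.7%), beside 15.6% of the tested genes with a promoter in the table, 9.01% of all genes in it and 7.89% of all its promoters. The 38 genes had 47 promoters, and a gene counted as holding a core if any of its starts did. A core was found in 13 of the 19 called genes with a promoter (68.4%) and in 3 of the 18 tested genes that were not called (16.7%): Dnmt1, Prim1 and Rfc3. Orc1, which was not tested, held one as well. These shares were not tested against each other. The called genes with a promoter but no core were Mcm2, Mcm3, Mcm8, Cdc45, Rfc4 and Lig1. A match is a run of letters and not a bound site, and no match says only that these letters are not in this window. The following 5 called genes show the cores, in capitals, and Mcm10, a gene that was not called, shows a promoter without one. Each is the 250 bases before the RefSeq start, 5′ to 3′ on the strand of the gene, in GRCm38.p6: Mcm5 at chr8:75109259-75109508 (plus strand), Mcm6 at chr1:128359706-128359955 (minus), Pola1 at chrX:93632156-93632405 (minus), Rrm1 at chr7:102441445-102441694 (plus), E2f8 at chr7:48881597-48881846 (minus) and Mcm10 at chr2:5012792-5013041 (minus). None of these stretches overlaps an annotated exon, but some windows of the other genes do, that of E2f1 over all 250 bases.
Mcm5: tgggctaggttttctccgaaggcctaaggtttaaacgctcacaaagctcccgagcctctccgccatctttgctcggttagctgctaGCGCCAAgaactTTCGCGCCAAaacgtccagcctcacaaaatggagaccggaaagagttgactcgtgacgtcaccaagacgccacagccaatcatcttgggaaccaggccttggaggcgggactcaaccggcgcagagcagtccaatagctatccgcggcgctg
Mcm6: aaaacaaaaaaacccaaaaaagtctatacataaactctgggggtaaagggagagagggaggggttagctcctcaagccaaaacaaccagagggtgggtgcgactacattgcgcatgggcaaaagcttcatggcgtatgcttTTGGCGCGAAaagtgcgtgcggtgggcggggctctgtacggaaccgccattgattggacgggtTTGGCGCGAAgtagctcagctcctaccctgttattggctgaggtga
Pola1: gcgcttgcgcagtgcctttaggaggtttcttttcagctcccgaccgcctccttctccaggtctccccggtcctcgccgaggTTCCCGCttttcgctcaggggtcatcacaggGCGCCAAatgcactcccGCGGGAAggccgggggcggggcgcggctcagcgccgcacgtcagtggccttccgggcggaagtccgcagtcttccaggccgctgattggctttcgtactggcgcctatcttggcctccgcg
Rrm1: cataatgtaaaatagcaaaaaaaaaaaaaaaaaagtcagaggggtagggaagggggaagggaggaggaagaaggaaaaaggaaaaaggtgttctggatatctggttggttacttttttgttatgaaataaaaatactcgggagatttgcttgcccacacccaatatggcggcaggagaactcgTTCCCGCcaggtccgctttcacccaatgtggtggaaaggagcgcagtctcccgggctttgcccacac
E2f8: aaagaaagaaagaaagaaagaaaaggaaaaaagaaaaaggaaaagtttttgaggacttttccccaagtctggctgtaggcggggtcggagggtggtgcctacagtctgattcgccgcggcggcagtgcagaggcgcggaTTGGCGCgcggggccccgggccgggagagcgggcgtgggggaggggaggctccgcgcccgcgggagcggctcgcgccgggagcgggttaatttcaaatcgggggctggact
Mcm10: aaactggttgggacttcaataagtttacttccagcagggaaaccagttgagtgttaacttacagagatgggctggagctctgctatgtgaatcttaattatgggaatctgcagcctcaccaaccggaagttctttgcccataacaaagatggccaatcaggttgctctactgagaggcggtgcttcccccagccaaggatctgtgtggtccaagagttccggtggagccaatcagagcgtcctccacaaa
Counted from the first base of the match to the start, the Mcm5 cores begin 164, 152 and 149 bases before it, and those of Mcm6 109, 106, 46 and 43 bases before it, in 2 overlapping pairs. The sequence at the RefSeq starts of Mcm5 and Mcm6 was not found in GENCODE transcripts of these genes, so their distances rest on RefSeq alone. The cores of Pola1 begin 169, 138 and 121 bases before the start, that of Rrm1 67 bases and that of E2f8 111 bases before it.

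Other motifs in the same windows were the CCAAT box, found in 65.8% of the 38 genes and 40.8% of the tested genes, and TTTGAA, found in 18.4% and 13.2%. CCAAT was present in the Mcm10 promoter as well, at 2 places. The ATF and CREB site TGACGTCA was in 1 of the 38 genes, Mcm5, where it begins 99 bases before the start, beside 2.89% of the tested genes. The AP-1 site, TGANTCA, was in 0 of the 38 genes, beside 5.8% of the tested genes. Whether ATF3 or an E2F factor was bound at any of these promoters was not measured.

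Among the licensing factors, which mark origins before S phase, Cdc6 was called and Orc1 was seen almost only in the ATF3 group. Orc1, the large ATPase subunit of the origin recognition complex, had 0, 0.554, 0 and 1.55 normalized counts in Null 1 to 4 against 7.47, 5.71, 7.30 and 5.52 in ATF3 1 to 4. Every ATF3 library lay above every Null library, at levels below the 10 needed for a test. Cdc6 (chr11:98907801-98923940, mm10), which loads the Mcm ring together with Cdt1, had 10.6, 6.82, 15.4 and 4.74 in the Null libraries and 27.6, 18.4, 25.3 and 20.1 in the ATF3 libraries. The groups did not overlap, and the log2 change was 1.29 (SE 0.35, limma adjusted p = 0.0263). The call of Cdc6 was lost without Null 2, ATF3 1, ATF3 3 or ATF3 4, with adjusted p from 0.0568 to 0.0757 in these 4 fits. Cdt1, the other loading factor, had 87.0 to 112 in the Null and 92.9 to 136 in the ATF3 libraries (log2 change 0.12, SE 0.16, adjusted p = 0.627). Orc6, the smallest origin recognition subunit, had 66.3 to 117 and 97.3 to 113 (log2 change 0.33, SE 0.18, adjusted p = 0.232), and the highest value of all 8 was that of Null 4.

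The Mcm2-7 ring, the core of the replicative helicase, was the group of genes with the highest median change. Mcm2 (chr6:88883474-88898780) had 74.4, 99.4, 89.0 and 86.3 normalized counts in Null 1 to 4 against 345, 272, 428 and 367 in ATF3 1 to 4. The lowest ATF3 library stood well above the highest Null library, and the ratio of the means was 4.05. The log2 change was 1.99 (SE 0.16, limma adjusted p = 1.68e-05), the highest of the 43 genes. Mcm4 (chr16:15623897-15637400) had 138, 145, 131 and 80.9 in the Null and 359.8, 294, 429 and 465 in the ATF3 libraries. Null 4 was the low library of its group, and the log2 change was 1.65 (SE 0.21, adjusted p = 0.000366). Mcm6 (chr1:128331590-128359664) had 140.1, 183, 168 and 214 in the Null and 447, 468, 383 and 524 in the ATF3 libraries. Its log2 change was 1.37 (SE 0.15, adjusted p = 0.000139), with no overlap.

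Mcm3 (chr1:20802968-20820312) had 103, 104, 102 and 134 in Null 1 to 4 against 274, 256, 247 and 329.6 in ATF3 1 to 4, a log2 change of 1.31 (SE 0.14, limma adjusted p = 0.000123). Mcm5 (chr8:75109569-75128439) had 55.9, 70.1, 84.5 and 108 in the Null and 223, 166, 175 and 197 in the ATF3 libraries. The log2 change of Mcm5 was 1.28 (SE 0.20, adjusted p = 0.00141), and its groups did not overlap. Mcm7 (chr5:138164583-138172422), the subunit with the most normalized counts of the 6 in the Null group, moved least. It had 320.3, 299.8, 339.6 and 319 in the Null and 379.5, 409, 379.9 and 397 in the ATF3 libraries. The groups were close but did not overlap, and the log2 change was 0.29 (SE 0.09, adjusted p = 0.0437). This call was lost in 7 of the 8 fits that left out 1 library, all but that without Null 4, with adjusted p from 0.0596 to 0.118. Of the 31-base stretches in the Mcm7 transcripts, 26.8% also occur, in the same sense, in transcripts of other genes. Which genes these are was not listed, and part of the Mcm7 reads may be assigned to them. Separately, exons of other genes overlap 3.89% of the exonic bases of Mcm7 on its own strand and 8.7% on the other strand. Among the genes that overlap in position, Ap4m1 and Cops6 had log2 changes of -0.27 (adjusted p = 0.118) and -0.10 (adjusted p = 0.839), neither of them called.

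**Figure D3:**
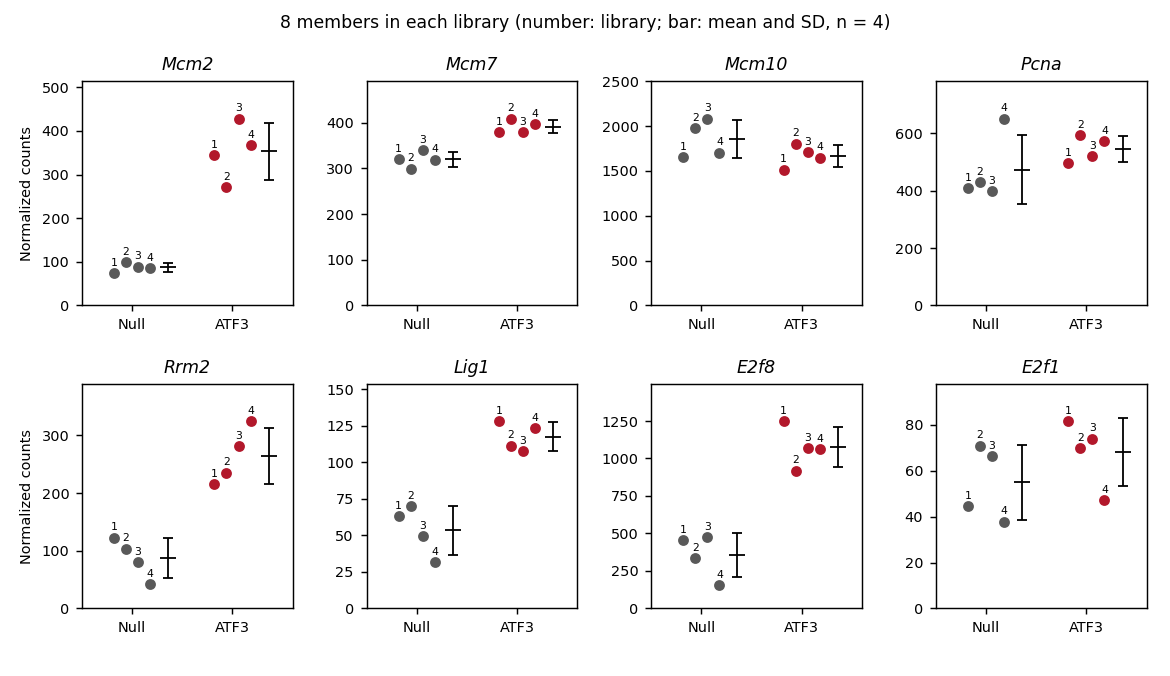
Normalized counts (vertical axes, from 0) of 8 replication genes in the 4 Null libraries (grey) and 4 ATF3 libraries (red), numbered by library, with the mean and SD (n = 4) at the right of each group. Mcm2, Rrm2, Lig1 and E2f8 have groups far apart, Mcm7 is separated by a narrow gap, and Mcm10, Pcna and E2f1 overlap, with Null 4 at 651 for Pcna.

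The makeup of the helicase transcripts differed between the groups. Mcm7 made up 45.5%, 39.98%, 44.1% and 40.5% of the summed TPM of Mcm2 to Mcm7 in Null 1 to 4 against 23.7%, 27.3%, 23.7% and 22.1% in ATF3 1 to 4, a scale per transcript length within each library. Its share was lower in every ATF3 library, with means of 42.5% ± 2.71 and 24.2% ± 2.22 (SD, n = 4). Mcm2 made up 7.93% ± 0.817 in the Null and 14.8% ± 2.48 in the ATF3 group, again without overlap. The shares of Mcm3, Mcm4, Mcm5 and Mcm6 overlapped between the groups. The summed normalized counts of the 6 genes were 897 ± 47.3 in the Null and 2054 ± 170.3 in the ATF3 libraries.

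**Figure D4:**
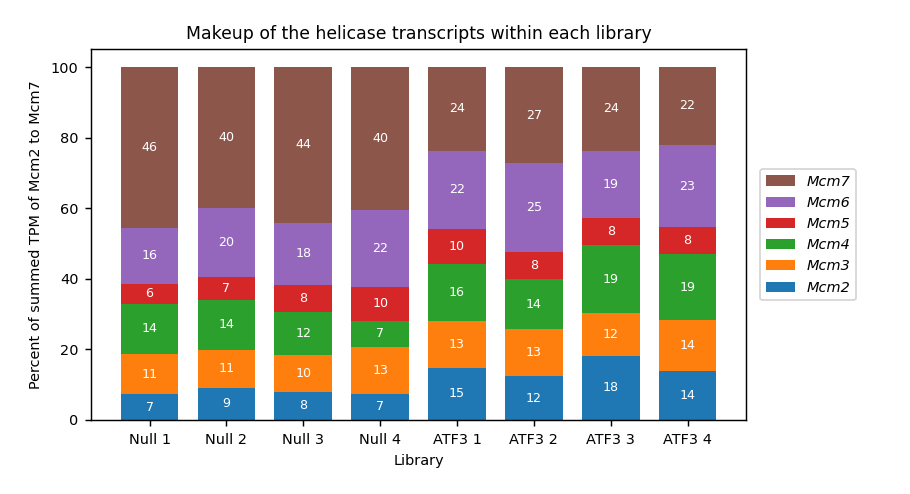
Share of each of Mcm2 to Mcm7 in their summed TPM (vertical axis, percent) in each of the 8 libraries, written as whole numbers in the bars. The Mcm7 part at the top is 39.98% to 45.5% in the Null libraries and 22.1% to 27.3% in the ATF3 libraries, and the Mcm2 part at the bottom is larger in all 4 ATF3 libraries.

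Of the other genes with an Mcm name, Mcm8 was called and Mcm9 and Mcm10 were not. Mcm8 (chr2:132816141-132844197), which acts with Mcm9 in recombination repair and not in the Mcm2-7 ring, had 34.8, 41.3, 57.2 and 35.7 in Null 1 to 4 against 81.7, 77.4, 74.4 and 94.2 in ATF3 1 to 4. The groups were apart, with a log2 change of 0.96 (SE 0.19, limma adjusted p = 0.00539). Mcm9 had 129.8 to 216 in the Null and 142 to 175 in the ATF3 libraries (log2 change -0.07, SE 0.16, adjusted p = 0.806). Mcm10 (chr2:4989714-5012791), a scaffold that helps to activate the loaded helicase, had the most normalized counts of the 44 genes. It had 1654, 1980.4, 2085 and 1704 in Null 1 to 4 against 1515, 1804, 1707 and 1648 in ATF3 1 to 4. The groups overlapped, with a log2 change of -0.15 (SE 0.10, adjusted p = 0.346). No annotated exon of another gene overlaps it, and 0.453% of its 31-base stretches occur in other genes.

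Of the factors that turn the loaded ring into a helicase, Cdc45 and Gins2 were called. Cdc45 (chr16:18780447-18811987), which binds the ring to make it active, had 21.7, 28.3, 24.8 and 33.6 in Null 1 to 4 against 44.1, 51.7, 40.4 and 68.6 in ATF3 1 to 4. The log2 change of Cdc45 was 0.88 (SE 0.22, limma adjusted p = 0.0189), and the call was lost without ATF3 2 or ATF3 4, with adjusted p from 0.0515 to 0.0636. Gins2 (chr8:120578633-120589304), a GINS subunit, had 6.29, 12.5, 6.19 and 6.34 in the Null and 19.4, 21.9, 22.2 and 16.9 in the ATF3 libraries. Null 2 stood above the other Null libraries, and the log2 change was 1.31 (SE 0.30, adjusted p = 0.0115). Gse1 on the other strand overlaps 67.3% of the exonic bases of Gins2, and it had a log2 change of -0.36 (adjusted p = 0.16). Whether strand was used in counting is not given in the sources used here, so reads of such overlapping genes cannot be told apart. Gins1, another GINS subunit, had 33.9 to 75.4 and 57.5 to 96.2 (log2 change 0.55, SE 0.28, adjusted p = 0.199).

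Of the primase and polymerase genes, all 8 had a positive change and 2 were called higher, beside 50.8% and 11.4% of all tested genes. Pola1 (chrX:93304767-93632155), the catalytic subunit of polymerase alpha, had 226, 182, 226 and 244 normalized counts in Null 1 to 4 against 407, 409, 372 and 439.9 in ATF3 1 to 4. The groups were far apart, with a log2 change of 0.89 (SE 0.12, limma adjusted p = 0.00047). Its partner subunit Pola2 had 189.7 to 265 and 218 to 236 (log2 change 0.04, SE 0.12, adjusted p = 0.861). Per length, the share of Pola1 in the summed TPM of Pola1, Pola2, Prim1 and Prim2 was 20.1% ± 2.30 in the Null and 29.1% ± 0.780 in the ATF3 group, and that of Pola2 was 39.4% ± 1.72 and 31.5% ± 0.971 (SD, n = 4). Neither pair of shares overlapped between the groups, while those of Prim1 and Prim2 did.

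Prim1, the small catalytic subunit of primase, had 61.4, 62.8, 68.7 and 70.4 in Null 1 to 4 against 89.4, 84.4, 85.8 and 88.5 in ATF3 1 to 4. All ATF3 libraries were higher, but the log2 change of 0.40 (SE 0.13) had a limma adjusted p of 0.0508 and was not called. Prim1 was called under other settings, among them column sums (adjusted p 0.0165), TMM factors and upper-quartile factors. Prim2, the large primase subunit, had 58.1 to 85.3 and 72.9 to 106 (log2 change 0.20, SE 0.18, adjusted p = 0.463). Pole (chr5:110286306-110337474), the catalytic subunit of the leading-strand polymerase epsilon, had 93.1, 123.4, 135 and 113 in the Null and 192, 188, 133 and 181 in the ATF3 libraries. ATF3 3 lay within the Null range, and the log2 change was 0.57 (SE 0.16, adjusted p = 0.0313). The call of Pole was lost in 5 of the 8 fits with 1 library left out (adjusted p 0.0517 to 0.0887), those without Null 1, Null 2, ATF3 1, ATF3 2 or ATF3 4. Pole2, its second subunit, had 8.79 to 18.6 and 10.1 to 26.6 (log2 change 0.39, SE 0.36, adjusted p = 0.49). Pold1, the catalytic subunit of polymerase delta, had 66.5 to 99.0 and 97.1 to 135 (log2 change 0.51, SE 0.17, adjusted p = 0.0585), and Pold2 had 158 to 233 and 226 to 262 (log2 change 0.22, SE 0.14, adjusted p = 0.31).

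The sliding clamp and its loader showed the smallest median change of the roles. Pcna (chr2:132249162-132253314), the ring that holds the polymerase on DNA, had 409.9, 431, 397 and 651 normalized counts in Null 1 to 4 against 496, 595, 520.5 and 572 in ATF3 1 to 4. The ATF3 libraries lay above Null 1 to 3 and below Null 4, and the log2 change was 0.24 (SE 0.16, limma adjusted p = 0.331). Without Null 4 the change of Pcna was 0.40 and was called (adjusted p = 0.012). Of its 31-base stretches 23.3% occur in transcripts of other genes. Rfc4 (chr16:23113943-23127737), a subunit of the loader that opens the clamp, had 27.4, 39.8, 33.6 and 42.0 in the Null and 62.0, 67.2, 57.6 and 55.3 in the ATF3 libraries. It was apart in the 2 groups, with a log2 change of 0.76 (SE 0.18, adjusted p = 0.0148). The loader subunits Rfc2, Rfc3 and Rfc5 were not called, with log2 changes of 0.31, -0.16 and -0.08 and adjusted p of 0.23, 0.636 and 0.807. In each of these 3 genes Null 4 was the highest of all 8 libraries, at 556, 191 and 196. Per length, the share of Rfc4 in the summed TPM of Rfc2 to Rfc5 was 6.87% ± 0.754 in the Null and 10.3% ± 1.12 in the ATF3 group, and that of Rfc3 was 24.0% ± 1.10 and 18.9% ± 1.47 (SD, n = 4), both without overlap.

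Of the genes that join the lagging strand, the ligase had the largest change. Lig1 (chr7:13277283-13311433), which seals the nicks between Okazaki fragments, had 62.9, 69.8, 49.6 and 31.6 in Null 1 to 4 against 128, 111, 107 and 124 in ATF3 1 to 4. Null 4 was lowest, the groups were apart, and the log2 change was 1.18 (SE 0.23, limma adjusted p = 0.00513). Fen1 (chr19:10199132-10204169), which trims the flaps of these fragments, had 90.4, 78.4, 117 and 90.9 in the Null and 134, 167, 151 and 146 in the ATF3 libraries. Its log2 change was 0.67 (SE 0.15, adjusted p = 0.00972). Tmem258 and Gm10143 on the other strand overlap 84.2% of the exonic bases of Fen1, and Tmem258 had a log2 change of 0.19 (adjusted p = 0.548). Rpa2 (chr4:132768332-132778752), a subunit of the complex that coats single-stranded DNA, had 98.6, 95.0, 76.4 and 137 in the Null and 147, 178, 136 and 148 in the ATF3 libraries. Null 4 lay above ATF3 3, so the groups overlapped, and the log2 change was 0.60 (SE 0.18, adjusted p = 0.0395). The Rpa2 call was lost in every fit that left out a single library other than Null 4 (adjusted p 0.0648 to 0.11). Rpa1, the large subunit, had 492 to 703 and 698 to 808, and its log2 change of 0.36 (SE 0.12, adjusted p = 0.0538) was not called. Rpa1 was called with column sums (adjusted p 0.0117), TMM factors and upper-quartile factors, among others, and without Null 2 or Null 4.

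In nucleotide supply, both subunits of ribonucleotide reductase, which makes deoxynucleotides, were called. Rrm2 (chr12:24708241-24714146), its small subunit, had 122.7, 104, 80.7 and 42.1 in Null 1 to 4 against 216, 236, 281 and 324 in ATF3 1 to 4. The groups were apart, Null 4 was the lowest library, and the log2 change was 1.67 (SE 0.29, limma adjusted p = 0.00273). Rrm1 (chr7:102441695-102469771), its large subunit, had 295, 315, 324 and 248 in the Null and 438, 419, 442 and 553 in the ATF3 libraries. Its log2 change was 0.64 (SE 0.13, adjusted p = 0.00515). Rrm2 made up 44.4%, 38.7%, 32.4% and 24.7% of the summed TPM of both subunits in Null 1 to 4 against 48.5%, 51.7%, 54.8% and 52.8% in ATF3 1 to 4. Its share was thus higher in every ATF3 library, with Null 1 the nearest. Tk1, the S-phase thymidine kinase, had 284, 287, 311 and 451 in the Null and 415, 574, 413 and 476 in the ATF3 libraries. Null 4 lay within the ATF3 range, and the log2 change of 0.51 (SE 0.17, adjusted p = 0.0581) was not called, while without Null 4 it was 0.66 (adjusted p = 0.00374). Tyms, which makes thymidylate, had 108 to 204 and 155 to 192 (log2 change 0.27, SE 0.19, adjusted p = 0.356).

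Of the 3 E2F genes, the repressor E2f8 was called and the activators E2f1 and E2f2 were not. E2f8 (chr7:48866429-48881596) had 453, 333, 477 and 153 normalized counts in Null 1 to 4 against 1247, 919, 1069.6 and 1064 in ATF3 1 to 4. Null 4 was the lowest of all, the groups were far apart, and the log2 change was 1.72 (SE 0.31, limma adjusted p = 0.00302). E2f1 had 44.5, 70.9, 66.5 and 37.9 in the Null and 81.5, 70.0, 74.0 and 47.4 in the ATF3 libraries, with overlap. Its log2 change was 0.33 (SE 0.25, adjusted p = 0.394). E2f2 had 44.3, 36.1, 44.01 and 19.4 in the Null and 49.97, 43.4, 55.4 and 63.7 in the ATF3 libraries. The log2 change of E2f2 was 0.61 (SE 0.27, adjusted p = 0.146), and ATF3 2 lay within the Null range. Differences between the changes of these 3 genes were not tested.

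Genes that restore chromatin behind the fork were called higher in 3 of 4 cases, beside 11.4% of all tested genes. Uhrf1 (chr17:56303321-56323486), which brings the maintenance methyltransferase to newly copied DNA, had 28.0, 34.9, 47.2 and 28.9 in Null 1 to 4 against 76.4, 65.7, 62.4 and 88.2 in ATF3 1 to 4. The groups did not overlap, and the log2 change was 1.07 (SE 0.21, limma adjusted p = 0.00496). Of the 31-base stretches of Uhrf1, 24.2% occur in other genes' transcripts. Dnmt1, that methyltransferase, had 477 to 552 and 513 to 649 (log2 change 0.20, SE 0.10, adjusted p = 0.214). Chaf1b (chr16:93883901-93906115), a subunit of the CAF-1 complex that places new nucleosomes, had 31.3, 44.5, 23.0 and 48.5 in the Null and 67.1, 85.6, 72.3 and 80.2 in the ATF3 libraries. Its log2 change was 1.08 (SE 0.24, adjusted p = 0.00942). Chaf1a (chr17:56040439-56072289), the large CAF-1 subunit, had 41.3, 50.6, 58.9 and 31.5 in the Null and 80.2, 65.4, 63.3 and 76.6 in the ATF3 libraries. All ATF3 libraries were higher, with a log2 change of 0.67 (SE 0.21, adjusted p = 0.0458), a call lost in every fit that left out a single library other than Null 3 (adjusted p 0.0606 to 0.119). Ubxn6 on the other strand overlaps 52.5% of the exonic bases of Chaf1a and had a log2 change of -0.28 (adjusted p = 0.0589).

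Per transcript length and within each library, Pcna and Mcm10 were the 2 most abundant of the 44 genes in all 8 libraries. Mcm10 made up 12.2% to 16.8% of the summed TPM of the 44 genes in the Null libraries and 9.21% to 10.4% in the ATF3 libraries. Pcna made up 11.4% to 16.6% in the Null and 10.9% to 11.97% in the ATF3 libraries. Orc1 was the least abundant and Cdc6 the next in every library. E2f8 stood at ranks 8 to 24 in the Null libraries and at ranks 3 to 6 in the ATF3 libraries, with 1.09% to 4.04% and 5.16% to 7.65% of the sum. Mcm2 stood at ranks 29 to 30 in the Null and 12 to 22 in the ATF3 libraries.

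The libraries of a group did not move as 1 block over these genes. Null 4 was the highest Null library for 21 of the 43 tested genes (48.8%, beside 37.2% of all tested genes) and the lowest for 11 (25.6%, beside 33.8%). The 21 included Pcna, Rfc2 to Rfc5, Tyms, Tk1, Mcm3, Mcm5 and Mcm6, and the 11 included Rrm2, E2f1, E2f2, E2f8, Lig1, Cdc6 and Mcm4. Null 1 was the lowest for 20 (46.5%, beside 28.1% of all tested genes). Deviations of the 43 genes from their group's mean had an SD of 0.44 in Null 4 and of 0.21 to 0.28 in the other Null libraries, and of 0.14 to 0.19 in the ATF3 libraries. Over all tested genes the SD in Null 4 was 0.45. Without Null 4, 29 replication genes were called higher, against 14.8% of all tested genes: Orc6, Pcna, Rfc2, Prim1, Pold1, Rpa1, Tyms and Tk1 were gained and Chaf1a was lost. Of the 22 called genes, 16 were called in all 8 fits with 1 library left out: Mcm2 to Mcm6, Mcm8, Gins2, Rfc4, Pola1, Fen1, Lig1, Rrm1, Rrm2, E2f8, Uhrf1 and Chaf1b. Of these, Gins2 had entered the test only through its ATF3 libraries.

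**Figure D5:**
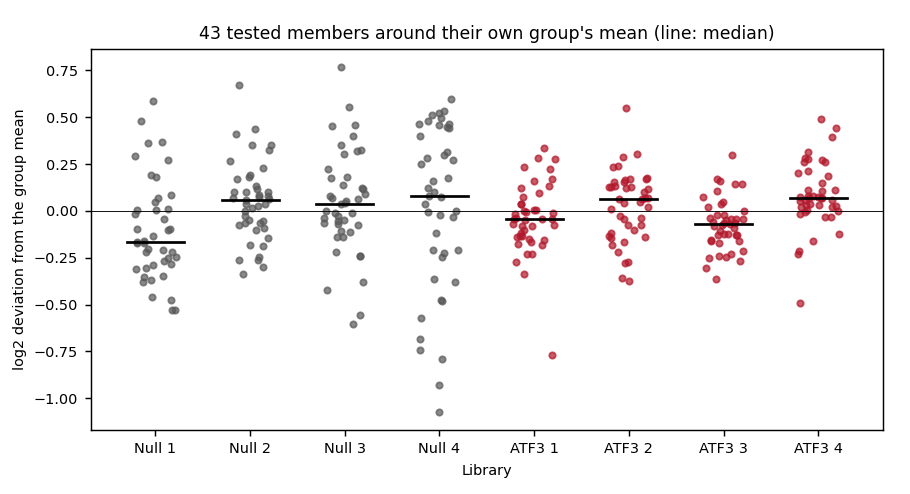
Deviation of each of the 43 tested replication genes from the mean of its own group, on the log2(normalized count + 1) scale (vertical axis), by library, with a black line at the median. Null 4 has the widest spread, both above and below 0 (SD 0.44), and the median of Null 1 is lowest at -0.17.

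Other genes of the pathway, from lists outside the 44, gave mixed counts. These stand beside 11.4% of all tested genes called higher and 9.82% called lower, and the counts of these small lists were not tested against those shares. Of 19 other replisome subunits tested, 2 were called higher (Pold4 with a log2 change of 0.64 and Orc5 with 0.40) and 1 lower (Dna2, -0.34). The median of these 19 was 0.07. Of 9 genes of origin firing and fork protection, 4 were called higher and 1 lower: Wdhd1, a fork scaffold, had 51.9 to 65.7 normalized counts in the Null and 83.0 to 121 in the ATF3 libraries (log2 change 0.86, SE 0.16, limma adjusted p = 0.00406), Timeless changed by 0.86 and Topbp1 by 0.45. Dbf4, the activating subunit of the Cdc7 kinase that fires origins, had 162 to 221 in the Null and 109 to 148 in the ATF3 libraries (log2 change -0.54, SE 0.15, adjusted p = 0.0261). Its call was lost without Null 1, ATF3 1, ATF3 3 or ATF3 4 (adjusted p 0.0579 to 0.0842). The call of Orc5 held only without Null 3, that of Pold4 only without Null 4 or ATF3 1, and that of Dna2 only without Null 1 or Null 4, out of the 8 fits that left out 1 library each, with adjusted p of at most 0.111, 0.0828 and 0.0979 elsewhere. With scaling by column sums the calls of Dbf4 (adjusted p 0.0522) and Dna2 (0.176) were lost, as was that of Dna2 with upper-quartile factors (0.0544). With TPM the changes of Dbf4 and Dna2 were positive, at 0.22 and 0.38, below the median of all genes there. Other genes of these lists named here also lost their call with TPM: Pold4, Orc5, Topbp1, Ctps, Tk2, Shmt1, Samhd1, Paics, Tfdp1, Tfdp2, E2f3, Rbl2, Rbbp4, Hat1 and Atr.

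Of a list of 8 genes around the control of licensing and S phase, 2 were called higher. For this list and the next, the shares over all tested genes were 11.4% called higher and 9.82% called lower. Cdkn1a, the cyclin kinase inhibitor p21, had 15.6 to 28.6 in the Null and 53.8 to 146 in the ATF3 libraries (log2 change 2.15, SE 0.32, limma adjusted p = 0.00115). Dtl, which directs Cdt1 and p21 to destruction in S phase, had 4.66 to 28.9 and 48.0 to 70.2 (log2 change 1.87, SE 0.47, adjusted p = 0.0174; 0.0529 without ATF3 4). Of 16 other genes of nucleotide supply, 5 were called higher, led by Ctps, which makes CTP (log2 change 0.81, SE 0.11, adjusted p = 0.000779), Tk2, Shmt1 and Samhd1, and 2 were called lower. The call of Samhd1 was lost without any 1 library other than Null 4 and ATF3 2 (adjusted p 0.0526 to 0.06). Paics, a purine synthesis enzyme named because the count was small, was among those called lower, with a log2 change of -0.46 (adjusted p = 0.0402). The Paics call was lost without Null 1, Null 2, ATF3 1, ATF3 3 or ATF3 4 (adjusted p 0.0629 to 0.118) and with column sums, TMM factors, upper-quartile factors, no filter or no trend (0.051 to 0.0764).

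Of 16 other E2F, pocket protein and DREAM complex genes, 4 were called higher and 3 lower, beside 11.4% and 9.82% of all tested genes. E2f7, the other atypical E2F repressor, had 9.02 to 21.4 normalized counts in the Null and 42.7 to 63.0 in the ATF3 libraries (log2 change 2.04, SE 0.29, limma adjusted p = 0.000871). Rbl1, the pocket protein p107, changed by 0.97 (SE 0.14, adjusted p = 0.000775), and Foxm1, an activator of mitotic genes, by 1.33 (SE 0.30, adjusted p = 0.0101). Tfdp2, an E2F dimer partner, had 763 to 858 and 517 to 669.9 (log2 change -0.47, SE 0.10, adjusted p = 0.00866; with TPM 0.32 and not called). Tfdp1, the other E2F dimer partner of this list, went the other way and was called higher. It had 500 to 670 in the Null and 750 to 893 in the ATF3 libraries (log2 change 0.47, SE 0.11, adjusted p = 0.0132). E2f3 and Rbl2 were the other 2 called lower, at -0.46 (adjusted p = 0.011) and -0.25 (adjusted p = 0.0491). The Rbl2 call was lost in every fit that left out a single library other than Null 4 (adjusted p 0.0595 to 0.136) and with each of the other scalings tried, from 0.0539 to 0.452. The call of E2f3 held in all 8 of these left-out fits.

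For the lists that follow, the shares over all tested genes were again 11.4% called higher and 9.82% called lower. Of 9 other genes that copy chromatin, 4 were called higher, led by Hells at 1.13, Mms22l at 0.95 and Hat1 at 0.55, and 1 was called lower. That gene was Rbbp4, a histone-binding subunit shared by CAF-1 and several other complexes, with 2071 to 2771 in the Null and 1422 to 1679 in the ATF3 libraries (log2 change -0.67, SE 0.11, limma adjusted p = 0.00195; with TPM 0.29 and not called). Of 9 S-phase checkpoint genes, Chek1 (log2 change 1.25, SE 0.27, adjusted p = 0.00916) and Atr (0.38, SE 0.09, adjusted p = 0.0171) were called higher and none lower. The call of Atr was lost without Null 3, ATF3 2 or ATF3 4 (adjusted p 0.0507 to 0.0571). Of 14 markers of mitosis and proliferation, 11 were called higher and 0 lower, with a median log2 change of 1.28. Top2a, the topoisomerase of dividing cells, had 89.8 to 128 in the Null and 205 to 332 in the ATF3 libraries (log2 change 1.32, SE 0.18, adjusted p = 0.000577), and Mki67, the Ki-67 antigen, changed by 1.19 (SE 0.20, adjusted p = 0.00186).

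Of 39 tested markers of other cells that liver RNA can hold, 0 were called higher and 4 lower. Over all tested genes, 11.4% were called higher and 9.82% lower, and the marker counts were not tested against these shares. The 7 hepatocyte markers in the table, led by Alb, summed to 1630535 to 2678555 normalized counts in the Null and 2625179 to 3096276 in the ATF3 libraries, with 3 called higher and 2 lower. The 8 Kupffer cell and macrophage markers had 0 calls and summed to 9061 to 13696 and 10502 to 15175. Of 7 tested lymphocyte markers 1 was called, Cd4, which was lower, and the 10 summed to 608 to 945 and 676 to 937. The 7 endothelial markers summed to 13947 to 16047 in the Null and 12968 to 13602 in the ATF3 libraries, lower in every ATF3 library, with 1 called lower (Ptprb). The normalized counts summed over all genes were also lower in every ATF3 library, and the marker sums were not rescaled by them. The 7 stellate cell markers summed to 11604 to 15073 and 10553 to 12530, with Rgs5 called lower, and the 6 cholangiocyte markers to 887 to 1429 and 893 to 1267, with Sox9 called lower. The erythroid markers, with 0 calls among 4 tested, summed to 8368 to 13355 and 7606 to 14027. The 5 neutrophil markers summed to at most 34.0 in any library, and Ly6g and Mpo were at 0 in all 8. The highest Kupffer and lymphocyte sums were those of ATF3 1 and Null 4. The part of any cell type in the changes of the replication genes was not tested.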

How the data were processed

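Liver RNA of 8 libraries was analysed, 4 with the Null and 4 with the ATF3 virus. Per the labels' protocols, extraction used a mirVana kit, and the libraries are of the TruSeq Stranded Total RNA type. Sequencing used a NextSeq 500 and Illumina software in BaseSpace, per the labels' design text. Bowtie2 and the build mm10 are named in the submitters' processing notes. For the quantifier, its strand setting and its annotation, the tool and version were not given in the sources used here. The authors deposited a signal per gene, estimated counts divided by a normalization factor and not whole numbers, called normalized counts here. The authors also deposited TPM, used here for shares within a library and as an alternative.

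A gene entered the test where 4 or more libraries had 10 or more. The test was limma 3.58.1 (R 4.3.3) on log2(value + 1), with a trend, two-sided, and Benjamini-Hochberg adjustment over all 13301 genes at a threshold of 0.05. The added 1 makes changes of low genes look smaller, and the true read depth behind the normalized counts is unknown. Motifs were searched in RefSeq promoters, and coordinates, overlaps and shared 31-base stretches come from GENCODE for mm10. Tables were made with pandas 2.3.3 and numpy 2.4.6 in Python 3.11.15, and figures with matplotlib 3.10.9. The 44 genes, the roles, the 8 other lists, the markers and the motifs were chosen with earlier results of these data known. Every one of the 44 may be named, and of each other list up to 4 genes with the smallest p. Genes named beyond that were chosen after their values were seen. They are genes where a count was small, genes that overlap one of the 44, and Tfdp1 as the partner of Tfdp2 in its list. Within the nucleotide supply list, a gene is counted but not reported here. Libraries carry no pairing. Alternatives covered scaling, filters, pseudocounts, variance and library weights, TPM and leaving out each library. DESeq2 and edgeR were not used, since no whole counts were found.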

Additional observations from a re-analysis of the deposited data

Results flagged for a closer look

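In 88 groups of 4 values, 1 for each of the 44 genes in each virus group, a library was looked for whose gap to the nearest other library takes up most of the range of the group, by the criterion of Dixon. Chance gives this in about 1 group in 20, and it was found in 4 groups, 3 of them for Null 4. Pcna in Null 4 had 651 normalized counts, where the other Null libraries had 397 to 431. Tk1 in Null 4 had 451, where the others had 284 to 311. Mcm3 in Null 4 had 134, where the others had 102 to 104. Gins2 in Null 2 had 12.5, where the others had 6.19 to 6.34.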

How the results depend on the processing

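The count of 22 replication genes higher in the ATF3 group stayed within 1.5 times under every alternative except TPM, which gave 12, and no alternative gave a replication gene called lower. The counts with 1 library left out ran from 16 (without ATF3 4) to 29 (without Null 4). The median of the tested replication genes was 0.70 with scaling by column sums, 0.83 with TPM, 0.29 with TPM scaled by a median of ratios, and 0.47 to 0.62 with 1 library left out. The median of all genes was 0.13 with column sums and 0.68 with TPM. In both TPM fits the 1 added before the log2 makes the changes of genes with low TPM smaller. Of all tested genes, 2472 were higher and 837 lower with column sums, 2271 and 2130 with library weights, and 440 and 76 with TPM, beside 1513 and 1306. With 1 library left out they ran from 1040 to 1965 higher and from 851 to 1812 lower.

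Signs turned with TPM for Mcm9 (0.44), Mcm10 (0.76), Rfc3 (0.53), Rfc5 (0.53), Orc4 (0.58), Dna2 (0.38), Dbf4 (0.22), Fbxo5 (0.21), Tfdp2 (0.32), Paics (0.54), E2f3 (0.25), Rbl2 (0.64), Rbbp4 (0.29) and Cdc25a (0.24). They turned with column sums for Mcm9 (0.0595) and Rfc5 (0.0458) and with library weights for E2f1 (-0.011). With 1 library left out, Mcm9 ran from -0.19 to 0.0547 (without Null 1), Pola2 from -0.0326 (without Null 1) to 0.13, Rfc3 from -0.32 to 0.0156 (without Null 4) and Rfc5 from -0.26 to 0.0523 (without Null 4). With TPM scaled by a median of ratios, where the median of all genes was 0.00314, 0 replication genes turned sign. The cause of these turns of sign was not tested. Of the alternative values of the replication genes' changes, 767 kept sign and call, 45 lost and 32 gained the call, and 11 turned. No paired analysis was possible because the labels give no replicate numbers, and the numbers used follow accession order. The number of libraries limits what smaller changes can be called.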
